A study of Mus musculus with 6 samples.

Results

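The vascular miRNAs described here are 7 of the 810 miRNAs counted in small extracellular vesicles (sEV) from mouse cochlear explants. They were taken by name from the count table, without use of their values: mmu-miR-126a-3p and mmu-miR-126a-5p, the arms of an endothelial hairpin, mmu-miR-143-3p, mmu-miR-145a-5p and mmu-miR-145a-3p, from neighbouring hairpins known from smooth muscle cells and pericytes, and mmu-miR-221-3p and mmu-miR-222-3p, found in several vessel cells. All 7 had reads in the table. The explants were cochlear sensory epithelium of ICR mice at postnatal day 3, dissected away from the spiral ganglion and other epithelial tissue and cultured in DMEM/F12 with fetal bovine serum, which was freed of sEV for the collection. They received 50 µM cisplatin, a platinum drug that damages hearing (Cis-sEV, 3 libraries), or the same volume of PBS (Ctrl-sEV, 3 libraries) for 48 h, and the sEV of about 80 explants were pooled for each library. The study describes the 3 libraries of a group as biological replicates, while the labels name no separate litters, so the p-values measure the spread between these pools. The comparison asks how the vascular miRNAs in the sEV differed between the groups. An explant in culture has no blood flow, and the cell of origin of a vesicle was not measured, so these miRNAs are a readout of vessel-type sources by their names alone.

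A miRNA is cut from a hairpin transcript as a short duplex, of which usually 1 strand is loaded onto an Argonaute protein and the other, the passenger arm, is mostly lost. The loaded strand pairs with messenger RNAs through its seed, the bases near its 5′ end. In blood vessels, miR-126 is the best known endothelial miRNA: it lies within Egfl7, a gene of secreted endothelial protein, and supports vessel integrity by lowering inhibitors of VEGF signalling such as Spred1. miR-143 and miR-145 keep smooth muscle cells contractile and are abundant in mural cells, the smooth muscle cells and pericytes that wrap vessels. miR-221 and miR-222 lower the receptor Kit and the cell cycle inhibitor Cdkn1b, and they restrain angiogenesis in endothelium while favouring growth of smooth muscle. The capillaries of the cochlea are lined by endothelium with pericytes; its densest bed, the stria vascularis, lies in the lateral wall, and the study's methods describe only the basement membrane tissue as cultured.

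The sequences below show which members can share targets through their seed, bases 2 to 8, written in capitals, and that the arms of miR-126a are different molecules. They are printed as the count table gives them, 5′ to 3′, and RefSeq (GRCm38.p6) held the same sequence for the 3 members with an entry, at chr2:26591402-26591423 on the plus strand for mmu-miR-126a-3p, chrX:19146307-19146329 on the minus strand for mmu-miR-221-3p and chrX:19146901-19146923 on the minus strand for mmu-miR-222-3p.
mmu-miR-126a-3p: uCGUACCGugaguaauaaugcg
mmu-miR-126a-5p: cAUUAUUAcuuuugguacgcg
mmu-miR-221-3p: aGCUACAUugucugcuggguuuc
mmu-miR-222-3p: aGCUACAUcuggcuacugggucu
The hairpin mmu-mir-126a in RefSeq is 73 nt long, and its arms are in capitals, 5p first, to show that the 3p and 5p reads come from opposite sides of 1 stem.
mmu-mir-126a: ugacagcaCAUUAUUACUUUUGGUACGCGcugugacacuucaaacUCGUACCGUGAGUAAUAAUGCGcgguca
mmu-miR-221-3p and mmu-miR-222-3p have the same first 8 bases and are alike at 11 of 23 positions when laid side by side without gaps. Among the 809 miRNAs with a sequence in the table, they shared their seed only with each other. Neither arm of miR-126a shared its seed with another miRNA, and no member had the same mature sequence as another miRNA in the table, so none of these counts could have been split between identical mature sequences.

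The libraries held 1722359 to 1794175 miRNA reads for Cis-sEV, against 528952 to 718597 for Ctrl-sEV. Levels are given as CPM, the reads of a miRNA for each 1000000 miRNA reads of the same library, so that a level is a share of the miRNAs and not an amount per vesicle or per explant. Fewer vesicles from a cell type and less of a miRNA in each vesicle cannot be told apart in such pooled samples. The Cis-sEV libraries had reads for 586 to 603 miRNAs and the Ctrl-sEV libraries for 258 to 311. Of these, 159 to 166 miRNAs had between 9 and 31 reads in a Cis-sEV library, against 11 to 20 in a Ctrl-sEV library. Conversely, 28 to 33 miRNAs had at least 32 reads in 1 Ctrl-sEV library and at most 1 read in each of the other Ctrl-sEV libraries, against 0 to 2 in the Cis-sEV libraries. Low and isolated counts were thus distributed differently in the 2 groups, and these values bear on mmu-miR-126a-5p, mmu-miR-145a-5p and mmu-miR-145a-3p below. The miRNAs of hair cells and other epithelium, most of all mmu-miR-183-5p, were plentiful, with a summed level of 108807 to 128165 CPM for their 9 miRNAs in Cis-sEV, against 79170 to 86964 CPM in Ctrl-sEV. mmu-miR-183-5p itself, at 35163 to 41155 CPM against 42046 to 43092 CPM, went against that sum and was lower in all Cis-sEV libraries.

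The vascular miRNAs spanned several orders of magnitude, as the plot of levels by library shows. Together they made up 1.25, 1.53 and 1.64% of the miRNA reads of Cis-sEV, against 1.86, 2.15 and 1.82% for Ctrl-sEV. Their summed level was 14729.5 ± 2039.7 CPM (SD, n = 3) in Cis-sEV, against 19421 ± 1840.2 CPM (SD, n = 3) in Ctrl-sEV, and all Cis-sEV libraries lay below all Ctrl-sEV libraries (exact permutation test, two-sided, p = 0.1, the smallest value that 3 libraries against 3 allow). In Cis-sEV, the order by mean level was mmu-miR-126a-3p, mmu-miR-143-3p, mmu-miR-222-3p, mmu-miR-221-3p, mmu-miR-145a-5p, mmu-miR-126a-5p and mmu-miR-145a-3p, and no neighbours in it overlapped between libraries. In Ctrl-sEV, mmu-miR-126a-3p and mmu-miR-143-3p again led and stood apart, while mmu-miR-222-3p and mmu-miR-221-3p overlapped, as did the 3 lowest, mmu-miR-145a-5p, mmu-miR-145a-3p and mmu-miR-126a-5p.

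**Figure D1:**
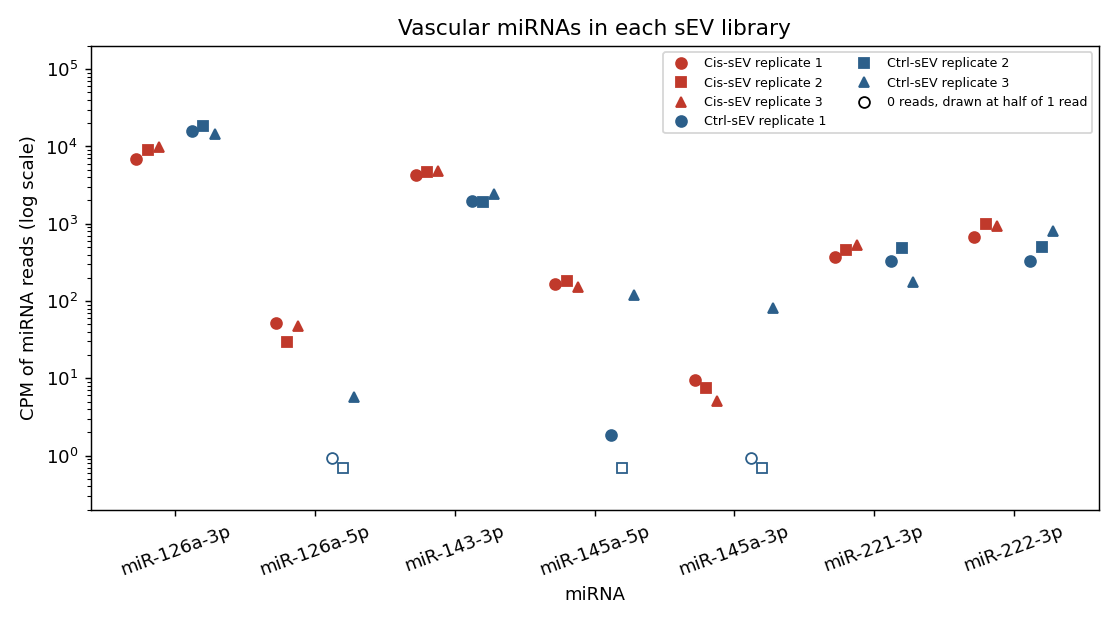
CPM of miRNA reads on a log axis for each vascular miRNA, with a point for each of the 3 Cis-sEV libraries (red) and 3 Ctrl-sEV libraries (blue), and open points for libraries with 0 reads, drawn at 0.5 reads. mmu-miR-126a-3p lies lower and mmu-miR-143-3p higher in all Cis-sEV libraries, mmu-miR-221-3p and mmu-miR-222-3p overlap, and Ctrl-sEV replicate 3 lies far above the other Ctrl-sEV libraries for both arms of miR-145a.

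Only 1 of the 6 members that had enough reads in enough libraries for the test passed it, and it fell. A call needed an adjusted p no greater than 0.05 and a log2 fold change of 1 or more in either direction in edgeR's quasi-likelihood test over 353 miRNAs. In that test, 83 miRNAs (23.5%) were higher and 23 (6.52%) were lower in Cis-sEV, or 97 and 11 when libraries were scaled by total reads. None of the 6 members was called higher, although 2, mmu-miR-126a-5p and mmu-miR-143-3p, had an unadjusted p under 0.05 on the higher side; DESeq2 and limma-voom called no member higher either. 1 member, mmu-miR-126a-3p, was called lower. Scaled by total reads, the calls changed places: mmu-miR-143-3p was called higher and mmu-miR-126a-3p was not called. Without regard to the test, the groups were fully separated in scaled CPM for 3 members, with Cis-sEV above for mmu-miR-126a-5p and mmu-miR-143-3p and below for mmu-miR-126a-3p, against 37.7% and 12.5% of the tested miRNAs. The median log2 fold change was 0.55 over the 6 members and 0.44 over all tested miRNAs.

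mmu-miR-126a-3p, the loaded endothelial strand, fell in Cis-sEV. It had 6862, 9056 and 9900 CPM in Cis-sEV replicates 1 to 3, from 12293, 15598 and 17762 reads. In Ctrl-sEV it had 15916, 18601.5 and 14589 CPM, from 8591, 13367 and 7717 reads. The highest Cis-sEV library thus lay well below the lowest Ctrl-sEV library, and the member moved from places 15, 15 and 17 among the miRNAs of the Ctrl-sEV libraries to places 33, 32 and 30 in the Cis-sEV libraries. The means were 8606 ± 1568 CPM (SD, n = 3) and 16369 ± 2044 CPM (SD, n = 3), a level 1.90-fold higher in Ctrl-sEV. With TMM scaling, which lines up the libraries on miRNAs of middling change, the log2 fold change was -1.28 with a standard error of 0.18 (edgeR, adjusted p = 0.00523), and relative to the median of the tested miRNAs it was -1.72. Of the tested miRNAs, 54 had a lower fold change. Scaled by total reads alone, the log2 fold change was -0.93 (edgeR, adjusted p = 0.00766), short of the limit on the fold. As the 24th most abundant tested miRNA, it is also 1 of the 40 most abundant, a set looked at after the values were seen, of which 7 were called higher and 8 lower, with a median log2 fold change of -0.07.

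The passenger arm mmu-miR-126a-5p went the other way in its reads. It had 94, 51 and 84 reads in Cis-sEV, or 52.5, 29.6 and 46.8 CPM, and 0, 0 and 3 reads in Ctrl-sEV, where 3 reads are 5.67 CPM. Every Cis-sEV library lay above every Ctrl-sEV library. The means were 43.0 ± 11.9 CPM (SD, n = 3) and 1.89 ± 3.27 CPM (SD, n = 3), and the ratio of the pooled levels was 25.7, with a Clopper-Pearson interval at the 95% level of 8.69 to 125.6 for counting error only, and 15.4 (5.19 to 75.1) without Ctrl-sEV replicate 2. The log2 fold change of 4.17 had a standard error of 1.52 and was not called (edgeR, adjusted p = 0.0759). Without Ctrl-sEV replicate 3, the Ctrl-sEV libraries had 0 reads, the level in Cis-sEV was at least 18.1-fold higher (against 3 reads over the group), and the member was called (edgeR, adjusted p = 0.0197). This miRNA entered the test through its reads in Cis-sEV, since no Ctrl-sEV library reached the CPM limit of the low-count filter. Only a higher call was therefore open to it.

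Within the hairpin, the passenger arm therefore took a larger share in Cis-sEV. It was 0.759% of the miR-126a reads in Cis-sEV replicate 1 (95% Wilson interval 0.621 to 0.928%), 0.326% in replicate 2 (0.248 to 0.428%) and 0.471% in replicate 3 (0.380 to 0.582%). In Ctrl-sEV it was 0 of 8591 reads in replicate 1 (95% Wilson interval 0 to 0.0447%), 0 of 13367 reads in replicate 2 (0 to 0.0287%) and 0.0389% (0.0132 to 0.114%) in replicate 3. No interval of a Cis-sEV library overlapped that of a Ctrl-sEV library. At the Cis-sEV rate of 5.02 passenger reads for each 1000 reads of the loaded strand, the 29675 reads of mmu-miR-126a-3p in Ctrl-sEV would have come with 149 passenger reads, where 3 were counted. The intervals cover counting error only, since reads amplified by PCR are not independent molecules. The within-library ratio of the arms differed by 5.63 on the log2 scale with 0.5 reads added (exact permutation test, two-sided, p = 0.1, adjusted p = 0.15 over 6 ratios), a size that rests on the added reads.

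Passenger arms of other hairpins were looked at after the values were seen. Of 27 hairpins with both arms in the table and at least 1000 reads of the major arm in every library, the share of the minor arm was higher in all Cis-sEV libraries for 10, lower in all for 5 and overlapping for 12. In 17 of the 27, the minor arm had 0 reads in at least 2 Ctrl-sEV libraries. The median share was 0.155% in Cis-sEV and 0.106% in Ctrl-sEV. The part of the scarcity of miRNAs with 9 to 31 reads in Ctrl-sEV in the result for mmu-miR-126a-5p was not tested.

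mmu-miR-143-3p, the abundant mural miRNA, was higher in Cis-sEV, by less than the fold limit. It had 4322, 4616 and 4822 CPM in Cis-sEV, from 7743, 7951 and 8652 reads, and 1980, 1933 and 2392 CPM in Ctrl-sEV, from 1069, 1389 and 1265 reads. The groups did not overlap, and the libraries of each group lay close together. The means were 4587 ± 251 CPM (SD, n = 3) and 2102 ± 252 CPM (SD, n = 3), a ratio of 2.18. With TMM scaling the log2 fold change was 0.77 with a standard error of 0.17, or 1.70-fold (edgeR, adjusted p = 0.0141), which is 0.33 above the median of the tested miRNAs. Scaled by total reads it was 1.13 and called (edgeR, adjusted p = 0.00412). The adjusted p was over 0.05 without Cis-sEV replicate 1 (0.0872) and without Cis-sEV replicate 2 (0.0563), in edgeR. It was also over 0.05 without the filter on low counts (0.0807) and with a replicate block (0.118), in edgeR.

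mmu-miR-145a-5p, which is transcribed beside miR-143 and represses Klf4 in smooth muscle, had even levels in Cis-sEV and very uneven ones in Ctrl-sEV. It had 298, 314 and 270 reads in Cis-sEV, or 166, 182 and 150 CPM. In Ctrl-sEV it had 1, 0 and 64 reads, or 1.85, 0 and 121 CPM. Ctrl-sEV replicates 1 and 2 thus lay near 0, while replicate 3 came close to the Cis-sEV libraries and overlapped them after TMM scaling. The means were 166 ± 15.9 CPM (SD, n = 3) and 40.9 ± 69.3 CPM (SD, n = 3), and the log2 fold change of 1.72 had a standard error of 1.91 and did not pass the test (edgeR, adjusted p = 0.618). Without Ctrl-sEV replicate 3 a single Ctrl-sEV read was left, and the ratio of the pooled levels was 209 (Clopper-Pearson interval 37.4 to 8268, for counting error only) in place of 4.57 (3.55 to 5.97). Without Ctrl-sEV replicate 2 the ratio was 2.73 (2.12 to 3.57). Without replicate 3 the member was called higher (edgeR, adjusted p = 0.0197). It then entered the test through its Cis-sEV reads alone, so only a higher call was open to it.

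The opposite arm, mmu-miR-145a-3p, showed the same library standing apart. It had 17, 13 and 9 reads in Cis-sEV, or 9.49, 7.55 and 5.02 CPM, and 0, 0 and 43 reads in Ctrl-sEV, where 43 reads are 81.3 CPM. It did not enter the test, because too few libraries reached the CPM limit of the low-count filter. The arm was 5.40, 3.98 and 3.23% of the miR-145a reads in Cis-sEV and 40.2% (95% Wilson interval 31.4 to 49.7%) in Ctrl-sEV replicate 3, while the other Ctrl-sEV libraries had 1 and 0 miR-145a reads in all. The pooled level in Cis-sEV was 0.305 of that in Ctrl-sEV (Clopper-Pearson interval 0.193 to 0.482), or 0.183 without Ctrl-sEV replicate 2, and without Ctrl-sEV replicate 3 it was at least 3.08-fold higher (against 3 reads over the group). Both arms are among the 28 miRNAs with at least 32 reads in that library and at most 1 in each of the other Ctrl-sEV libraries. The part of this library's isolated counts in the results for miR-145a was not tested.

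mmu-miR-221-3p overlapped between the groups. It had 371, 459 and 536 CPM in Cis-sEV, from 664, 790 and 961 reads, and 333, 493 and 174 CPM in Ctrl-sEV, from 180, 354 and 92 reads. Ctrl-sEV replicate 2 lay within the Cis-sEV range and the other Ctrl-sEV libraries below it. The means were 455 ± 82.5 CPM (SD, n = 3) and 333 ± 159 CPM (SD, n = 3). The log2 fold change was 0.10 with a standard error of 0.49 (edgeR, adjusted p = 0.927), and its sign changed with the scaling, to -0.02 with DESeq2 size factors and -0.13 with upper-quartile factors.

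mmu-miR-222-3p, its seed partner, overlapped as well. It had 673, 979 and 941 CPM in Cis-sEV, from 1206, 1687 and 1689 reads, and 330, 507 and 805 CPM in Ctrl-sEV, from 178, 364 and 426 reads. Ctrl-sEV replicate 3, the lowest library for mmu-miR-221-3p, was the highest Ctrl-sEV library for mmu-miR-222-3p. The means were 865 ± 167 CPM (SD, n = 3) and 547 ± 240 CPM (SD, n = 3), and the log2 fold change was 0.33 with a standard error of 0.38 (edgeR, adjusted p = 0.623). As a share of the reads of the pair, mmu-miR-222-3p took 64.5, 68.1 and 63.7% in Cis-sEV and 49.7, 50.7 and 82.2% in Ctrl-sEV. The ratio of mmu-miR-222-3p to mmu-miR-221-3p was 1.82, 2.14 and 1.76 in Cis-sEV and 0.989, 1.03 and 4.63 in Ctrl-sEV, so that the narrow Cis-sEV range lay within the wide Ctrl-sEV range (exact permutation test, two-sided, p = 1, adjusted p = 1 over 6 ratios).

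**Figure D2:**
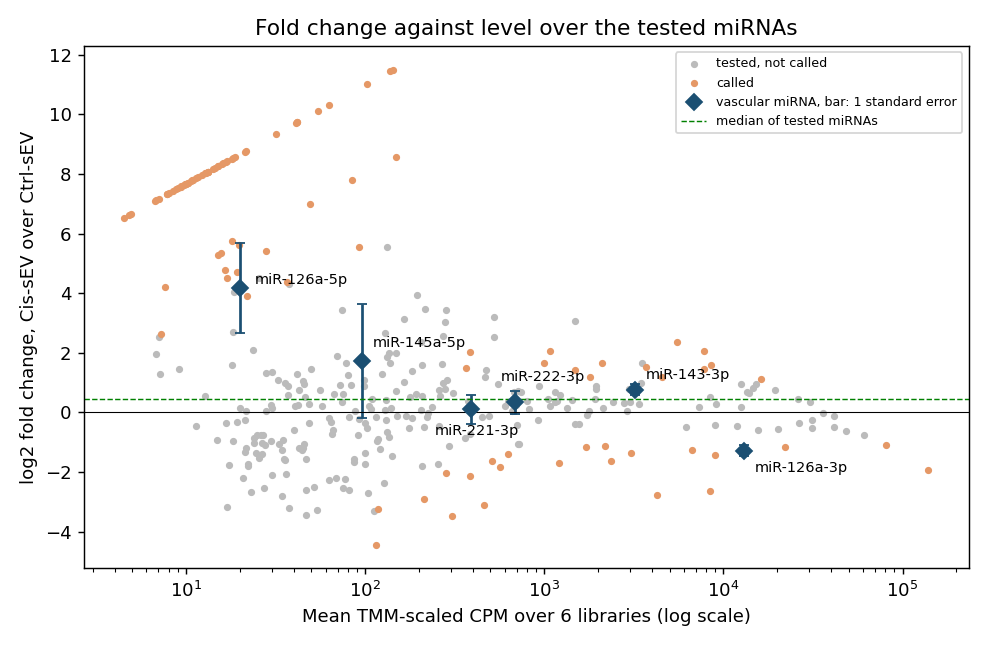
log2 fold change of Cis-sEV over Ctrl-sEV against mean TMM-scaled CPM over 6 libraries (log axis) for the 353 tested miRNAs, with called miRNAs in orange, the 6 tested vascular miRNAs as diamonds with bars of 1 standard error, and a dashed line at the median of 0.44. mmu-miR-126a-3p lies at -1.28, mmu-miR-143-3p at 0.77 with a short bar, and mmu-miR-126a-5p and mmu-miR-145a-5p have long bars, while the straight line of orange points holds miRNAs with no reads in Ctrl-sEV, whose fitted folds are no measure of size.

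The passenger arms of miR-221 and miR-222 were at the edge of detection. mmu-miR-221-5p had 0, 3 and 0 reads in Cis-sEV and 76, 0 and 1 in Ctrl-sEV, so that nearly all of its reads came from Ctrl-sEV replicate 1. Its pooled level in Cis-sEV was 0.0131 of that in Ctrl-sEV (Clopper-Pearson interval 0.00265 to 0.0398), 0.705 (0.0566 to 37.0) without that library and 0.00784 without Ctrl-sEV replicate 2. mmu-miR-222-5p had 8, 0 and 12 reads in Cis-sEV and none in Ctrl-sEV, which is at least 2.24-fold higher in Cis-sEV (against 3 reads over the group), or 1.34-fold without Ctrl-sEV replicate 2. Neither reached the low-count filter of the test in enough libraries. mmu-miR-126b-3p, mmu-miR-126b-5p, mmu-miR-143-5p and mmu-miR-145b had no row under these names in the count table, so they could not be analysed.

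A ratio of members in the same library does not depend on how libraries are scaled. The ratio of mmu-miR-143-3p to mmu-miR-126a-3p, the most abundant mural and endothelial members, was 0.630, 0.510 and 0.487 in Cis-sEV and 0.124, 0.104 and 0.164 in Ctrl-sEV. Every Cis-sEV library lay above every Ctrl-sEV library. On the log2 scale the means were -0.89 ± 0.20 (SD, n = 3) and -2.96 ± 0.33 (SD, n = 3), a 4.19-fold difference (exact permutation test, two-sided, p = 0.1, the smallest value possible); this pair was chosen after the values were seen. The sum of the 3 mural members over the sum of the miR-126a arms gave 0.651, 0.529 and 0.5004 in Cis-sEV and 0.125, 0.104 and 0.178 in Ctrl-sEV, a 4.21-fold difference (exact permutation test, p = 0.1, adjusted p = 0.15 over 6 ratios). mmu-miR-126a-3p accordingly made up 55.1, 59.1 and 60.4% of the reads of all 7 members in Cis-sEV and 85.7, 86.4 and 80.3% in Ctrl-sEV, and mmu-miR-143-3p made up 34.7, 30.1 and 29.4% against 10.7, 8.98 and 13.2%.

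The sum of mmu-miR-221-3p and mmu-miR-222-3p over the sum of the miR-126a arms was also higher in Cis-sEV. It was 0.151, 0.158 and 0.148 in Cis-sEV and 0.0417, 0.0537 and 0.0671 in Ctrl-sEV, a 2.87-fold difference without overlap (exact permutation test, two-sided, p = 0.1, adjusted p = 0.15 over 6 ratios). Both this ratio and the mural one have the miR-126a reads below the line, so they are not separate observations of its fall. The ratio of mmu-miR-145a-5p to mmu-miR-143-3p, which lie side by side in the genome, was 0.0385, 0.0395 and 0.0312 in Cis-sEV and 0.000935, 0 and 0.0506 in Ctrl-sEV. It overlapped because of Ctrl-sEV replicate 3 (exact permutation test, two-sided, p = 0.4, adjusted p = 0.48 over 6 ratios). The arm ratio of miR-145a differed by -3.77 on the log2 scale (exact permutation test, two-sided, p = 0.1, adjusted p = 0.15 over 6 ratios), but in Ctrl-sEV replicates 1 and 2 it rests on 1 and 0 reads and the 0.5 reads added.

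**Figure D3:**
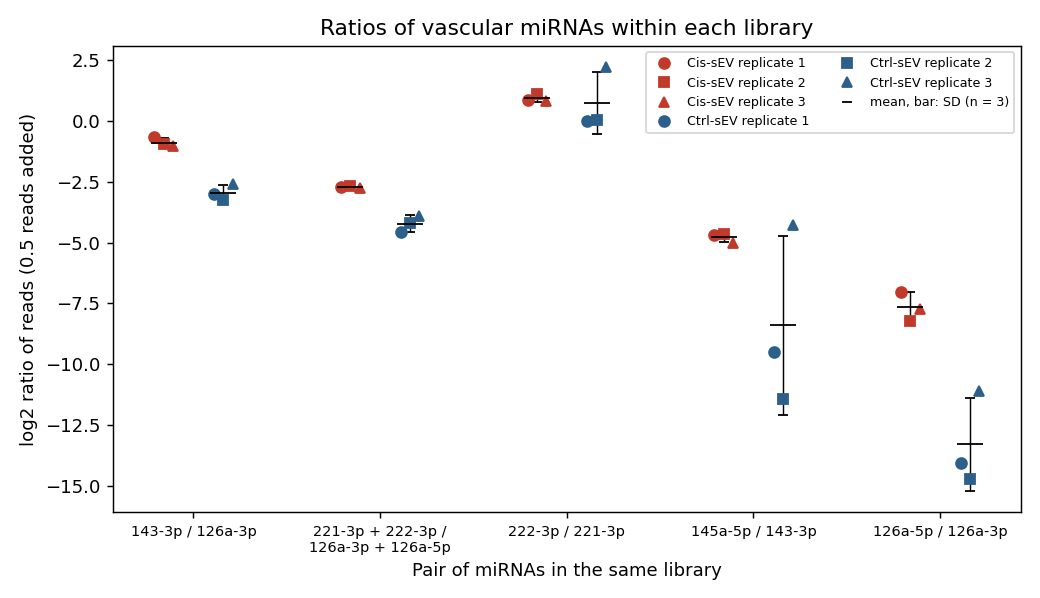
log2 ratio of reads of vascular miRNAs within the same library, with 0.5 reads added to each sum, for 3 Cis-sEV (red) and 3 Ctrl-sEV (blue) libraries; horizontal marks are means and bars are SD (n = 3). The ratio of mmu-miR-143-3p to mmu-miR-126a-3p is -0.89 in Cis-sEV and -2.96 in Ctrl-sEV without overlap, while the ratio of mmu-miR-145a-5p to mmu-miR-143-3p and that of mmu-miR-222-3p to mmu-miR-221-3p overlap between the groups.

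The members sit at 3 places in the genome (GRCm38, GENCODE M21). Mir126a lies at chr2:26591357-26591429 on the plus strand, inside Egfl7 (chr2:26580014-26593120), and of the 9 Egfl7 transcripts that span it 8 have it in an intron. It overlaps Mir126b on the opposite strand. Mir221 (chrX:19146294-19146388) and Mir222 (chrX:19146893-19146971) lie on the minus strand of the X chromosome with 504 bases between them and no other gene over them. Mir143 (chr18:61649196-61649258) and Mir145a (chr18:61647825-61647894) lie on the minus strand with 1301 bases between them, just downstream of the annotated end of Carmn (chr18:61649625-61665537), a long noncoding RNA of cardiac and smooth muscle. Members that lie together did not always move together in the libraries: mmu-miR-221-3p and mmu-miR-222-3p were ordered differently in Ctrl-sEV, and mmu-miR-145a-5p had 1 and 0 reads in Ctrl-sEV replicates 1 and 2 beside 1069 and 1389 reads of mmu-miR-143-3p.

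The levels of the members over the 6 libraries were closest to those of miRNAs from several families, by the root mean square distance between their centred log2 profiles (TMM-scaled CPM with 1 added) over 347 other tested miRNAs. mmu-miR-126a-3p was nearest to mmu-miR-92b-3p, at 0.159, and to mmu-let-7c-5p, at 0.203, against a median distance of 2.43. mmu-miR-143-3p was nearest to mmu-miR-23a-3p, at 0.117, and to mmu-miR-100-5p, at 0.161, against a median of 1.86. mmu-miR-126a-5p was nearest to mmu-miR-378a-5p, at 0.182, itself with a mean of 42.2 CPM in Cis-sEV, against 1.26 CPM in Ctrl-sEV. mmu-miR-145a-5p had no close neighbour, the nearest, mmu-miR-24-2-5p, lying at 0.609. mmu-miR-221-3p was nearest to mmu-miR-211-5p, at 0.173, and mmu-miR-222-3p to mmu-miR-21a-5p, a miRNA of growing smooth muscle among other cells, at 0.214. The members themselves were left out of the search. These distances are descriptions over 6 libraries that share their scaling.

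Other miRNAs listed by name for vessel cells, whose cell of origin was likewise not measured, did not all move with the members. Of 16 further miRNAs known from endothelium or angiogenesis, 13 were tested. Called higher were 2, mmu-miR-27b-3p (log2 fold change 1.53) and mmu-miR-218-5p (1.45), against 23.5% of all tested miRNAs. Called lower was 1, mmu-miR-92a-3p (-1.43), against 6.52% of all tested miRNAs. The median log2 fold change of the list was 0.64. Their summed level was 75010 to 84206 CPM in Cis-sEV, against 45341 to 53801 CPM in Ctrl-sEV, so as a sum they were higher while mmu-miR-126a-3p was lower. The most abundant of them, mmu-miR-23a-3p and mmu-miR-24-3p, are found in many cell types. Of 8 further smooth muscle miRNAs, 6 were in the table and all 6 were tested. Called higher were 2, against 23.5% of all tested miRNAs: mmu-miR-195a-5p, with 0 reads in Ctrl-sEV, and mmu-miR-1a-3p, with 0, 2 and 0 reads. Both entered the test through their Cis-sEV reads, so only a higher call was open to them. limma-voom called 1 of them, mmu-miR-195a-5p. The median log2 fold change was 0.87 over the 6. The most abundant, mmu-miR-26a-5p (-0.03) and mmu-miR-21a-5p (0.27), were not called. Of 5 mesenchymal miRNAs, 0 were called by edgeR, DESeq2 or limma-voom and 0 had an unadjusted p under 0.05 in edgeR, and their summed level of 1960 to 5584 CPM in Cis-sEV overlapped that of 1254 to 3051 CPM in Ctrl-sEV.

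Markers of other cells in and around vessels were set beside the fall of mmu-miR-126a-3p. Of 5 red blood cell miRNAs, 4 were in the table and 3 were tested. Called lower by edgeR were 2, against 6.52% of all tested miRNAs: mmu-miR-486a-5p (log2 fold change -3.47) and mmu-miR-451a (-1.15), the miRNA most typical of red cells. DESeq2 called 3 lower and limma-voom 0. Their summed level was 1158 to 1337 CPM in Cis-sEV, against 1639 to 3604 CPM in Ctrl-sEV, so red cell miRNAs were lower in the same libraries as mmu-miR-126a-3p, and their part in its change was not tested. Outside these lists, mmu-miR-122-5p, another of the 23 miRNAs called lower, had a log2 fold change of -2.78 (edgeR, adjusted p = 0.0011). It was on no list fixed beforehand, and its adjusted p was the lowest of all tested miRNAs. The part of the culture serum in these changes was not tested. mmu-miR-486a-5p has the same mature sequence as mmu-miR-486b-5p, so reads could be split between them, and mmu-miR-144-3p had 2 reads in 1 Cis-sEV library and 0 in all Ctrl-sEV libraries. Of 6 leukocyte miRNAs, 3 were tested, 0 were called by edgeR, DESeq2 or limma-voom and 0 had an unadjusted p under 0.05 in edgeR; their summed level was 2380 to 2520 CPM in Cis-sEV, against 1908 to 2195 CPM in Ctrl-sEV. Of 9 miRNAs of hair cells and other epithelium, all tested, 3 were called higher by edgeR, against 23.5% of all tested miRNAs. DESeq2 called 3 higher and limma-voom 1, and the median log2 fold change was 0.34. Of 4 neuronal miRNAs, 3 were tested and only mmu-miR-124-3p was called higher, against 23.5% of all tested miRNAs. With 0 reads in Ctrl-sEV, it entered the test through its Cis-sEV reads alone.

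How the 6 tested members depend on the settings is shown in the plot of fold changes by setting. mmu-miR-126a-3p was called in 14 of 15 alternatives, with log2 fold changes from -1.51 to -1.17 in those and from -1.45 to -1.17 when any 1 library was left out. mmu-miR-143-3p had a positive log2 fold change in all 15, from 0.55 to 1.13. mmu-miR-126a-5p and mmu-miR-145a-5p had a positive log2 fold change in all 15 and were called in 1 of them each, without Ctrl-sEV replicate 3. In that setting only a higher call was open to them. mmu-miR-222-3p was called in none of the 15 (0.06 to 0.79), nor was mmu-miR-221-3p (-0.13 to 0.50).

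**Figure D4:**
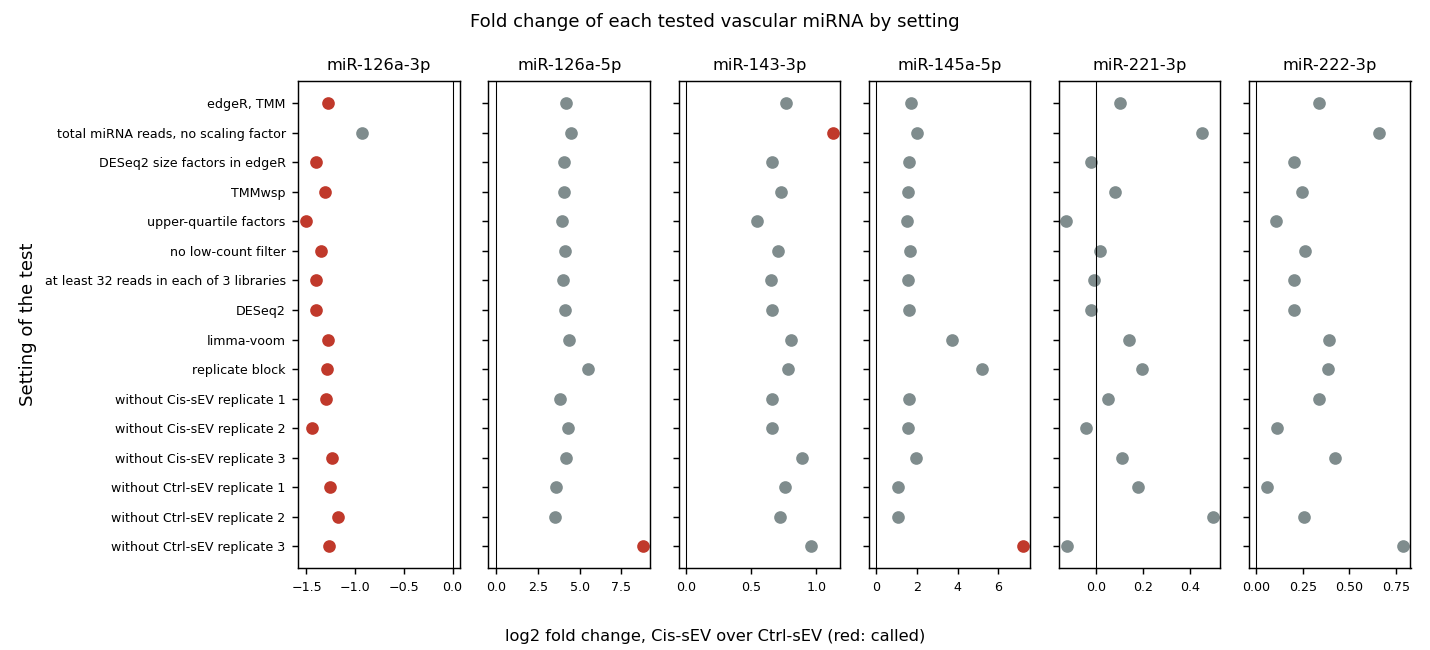
log2 fold change of Cis-sEV over Ctrl-sEV for each tested vascular miRNA under edgeR with TMM scaling and 15 alternatives (1 line each), red where the miRNA was called; the horizontal axis differs between panels and the vertical line marks 0. mmu-miR-126a-3p stays below 0 throughout, mmu-miR-143-3p stays above 0, mmu-miR-221-3p lies on both sides of 0, and mmu-miR-126a-5p and mmu-miR-145a-5p are called only without Ctrl-sEV replicate 3.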

How the data were processed

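Small RNA of 18 to 30 nt, selected by PAGE, was sequenced on the DNBSEQ platform from 3 Cis-sEV and 3 Ctrl-sEV samples. Per the study's methods and the submitters' processing notes, the authors used Bowtie2 for alignment (GRCm38.p6) and AASRA and cmsearch for annotation, with precedence for miRBase names, and deposited raw read counts for 810 miRNAs. Their differential test was an MA-plot method with limits of 1 on the log2 fold change and 0.05 on q, and its limits were kept here.

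Counts were tested in edgeR 4.0.16 (R 4.3.3) with the quasi-likelihood test, TMM factors (0.761 to 1.18), filterByExpr as low-count filter and Benjamini-Hochberg adjustment. The filter turned its limit of 10 reads into a CPM limit at the median library size. That limit had to be reached in as many libraries as the smaller group held, with 15 reads over all. The standard errors given for edgeR were derived from its test, as the absolute log2 fold change over the square root of the F statistic. They are rough for members with 0 reads in a library. DESeq2 1.42.0 and limma 3.58.1 (voom) were alternatives, beside other scalings, filters, a replicate block and the omission of each library. Tested on simulated data with 200 miRNAs changed 8-fold, edgeR recovered 196 with 0 false calls among 346 tested. The simulated counts had the same dispersion for every miRNA and were not given counts isolated in a single library. This recovery therefore does not carry over to members with such counts. Ratios within a library used an exact permutation test (scipy 1.17.1) with 0.5 reads added. Replicates differed by more than sampling noise (chi-square per degree of freedom 66.3 to 115). The text names all 7 members, their partner arms, and from each fixed list those called or needed by a sentence. The members were taken by name and not by their values. Earlier results of these data were known when members, lists and tests were fixed. The sequences of 3 members are not reported here.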

Additional observations from a re-analysis of the deposited data

How the results depend on the processing

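Over all tested miRNAs, 106 were called, of which 1 was a vascular miRNA. The number of miRNAs called was 70 when at least 32 reads in each of 3 libraries were required, 43 with limma-voom and 53 to 169 when 1 library was left out (169 without Ctrl-sEV replicate 3). Without the limit on the fold change 2 members were called, mmu-miR-126a-3p and mmu-miR-143-3p. Leaving out 1 library gave 1 to 4 members called, 4 without Ctrl-sEV replicate 3, where mmu-miR-126a-5p, mmu-miR-145a-5p and mmu-miR-145a-3p joined. Those that joined entered that test through their Cis-sEV reads alone, so only a higher call was open to them. The deviations of same-numbered libraries had correlations of -0.0486, -0.175 and -0.0159, and no library correlated best with its own number. These values cannot settle whether same-numbered samples shared a litter or culture day, which the labels do not name. With the replicate block, 24 miRNAs and 1 member were called, and the adjusted p of mmu-miR-143-3p was 0.118 (edgeR).

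The log2 fold change of mmu-miR-221-3p changed sign to -0.0229 with DESeq2 size factors, -0.13 with upper-quartile factors, -0.0096 with the stricter filter and -0.0243 in DESeq2, and ranged from -0.12 to 0.50 when 1 library was left out. The median of the tested miRNAs was 0.44, 0.80 with total reads, 0.33 with DESeq2 size factors and 0.22 with upper-quartile factors. The log2 difference in the ratio of mmu-miR-126a-5p to mmu-miR-126a-3p fell to 3.11 with 5 reads added. That of mmu-miR-222-3p to mmu-miR-221-3p was 0.18 and ranged from -0.20 to 0.91 when 1 library was left out, -0.20 without Ctrl-sEV replicate 1 and -0.17 without Ctrl-sEV replicate 2. The difference in summed level was -4691 CPM, -8916 with TMM scaling and -23208 without the 10 most abundant miRNAs. The cause of these changes was not tested. At the Ctrl-sEV depth, 3 reads are 4.17 to 5.67 CPM, against 1.67 to 1.74 CPM in Cis-sEV, so low levels were counted less precisely in Ctrl-sEV.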
